A study of Mus musculus with 7 samples.

Results

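The 40 genes described here encode proteins that make ribosomes, together with enzymes of polyamine and pyrimidine synthesis that are commonly listed with them. They were taken by gene symbol from a fixed list, which was chosen with earlier results of these data known. Each was represented by the brightest of its probe sets that carries exactly 1 gene symbol. All 40 members had such a probe set among the 18193 genes measured, and all 40 reached the minimum intensity that a gene needed to be tested, as did 10874 genes in all. Expression was measured in 7 single-colour Affymetrix Mouse Genome 430 2.0 arrays of T cells sorted from thymuses of mice aged 4 to 6 weeks on the C57BL/6J background. A first group of 3 arrays, called Luxoid here, held stage 1 NKT cells of Valpha14 TCR transgenic mice that also carried the Luxoid mutation and are described as deficient in PLZF, the transcription factor encoded by Zbtb16. A second group of 2 arrays, called stage 1 NKT, held the same sorted population from Valpha14 TCR transgenic mice with PLZF. The third group, CD4SP, consisted of 2 arrays of CD4+ CD8- thymocytes from wild-type mice without the transgene. NKT cells are lipid-specific T cells restricted by CD1d, and stage 1 was sorted as binding the CD1d tetramer, low for CD24 and negative for CD44 and NK1.1.

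Every sample was a pool of mice, and the labels call the arrays of a group biological replicates. Both NKT groups carried the transgene and CD4SP did not, so that cell type and transgene cannot be told apart in comparisons with CD4SP. The cell type label of the CD4SP samples repeats the NKT sort, but title, source and description all give CD4SP, which was used. Zbtb16, which NKT cells express, had intensities of 1857, 2774 and 2645 in Luxoid arrays and 2751 and 3488 in stage 1 NKT arrays, against 87 and 62 in CD4SP arrays. The transcript was therefore bright in the Luxoid arrays, and its level does not check the loss of the protein (Luxoid minus stage 1 NKT -0.38 ± 0.23 on the log2 scale, adjusted p = 0.607). Of the 4 stage 1 NKT markers listed, Icos (-1.11 ± 0.15, adjusted p = 0.00946) and Il4 (-1.19 ± 0.17, adjusted p = 0.0100) were lower in Luxoid than in stage 1 NKT by limma. Il17rb did not pass (-0.51 ± 0.19, adjusted p = 0.349). Icos in Luxoid was near its CD4SP level (-0.04 ± 0.15, adjusted p = 0.905).

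Ribosomes are assembled in the nucleolus. RNA polymerase I transcribes a long precursor of ribosomal RNA, small nucleolar ribonucleoproteins (snoRNPs) guide its chemical modification, and a large set of assembly factors folds and cuts the precursor into the small and the large subunit before both are exported. Resting lymphocytes make few ribosomes, activated and dividing ones make many, and Myc is a well known activator of these genes.

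Intensities are the authors' RMA values on a linear scale. Differences are of mean log2 intensity, printed with their standard error, and a gene is called where the p-value of limma, adjusted by Benjamini-Hochberg over the 10874 genes tested, is under 0.05. Over all probe sets, arrays of one group correlated with each other at 0.984 to 0.992, Luxoid with stage 1 NKT arrays at 0.981 to 0.992 and either with CD4SP arrays at 0.968 to 0.979, and the array medians were 79.6 to 83.7. Genes used by all T cells (Cd3e, Cd3d, Cd3g, Cd247, Zap70, Lat and Thy1) summed to 28344 to 31345 in Luxoid, 30383 to 30660 in stage 1 NKT and 32762 to 33033 in CD4SP arrays. Of 7 markers of immature double-positive thymocytes, 3 reached the minimum intensity, and the list summed to 418 to 574 in Luxoid, 316 to 325 in stage 1 NKT and 927 to 1075 in CD4SP arrays, with Rag1 and Ptcra under the minimum in every array. Dntt had 98, 51 and 120 in Luxoid, 74 and 46 in stage 1 NKT and 461 and 527 in CD4SP arrays. By limma Dntt and Cd8b1 were lower in stage 1 NKT than in CD4SP (-3.08 ± 0.38, adjusted p = 0.00121, and -1.92 ± 0.39, adjusted p = 0.0136). Cd8a was lower there too (-0.68 ± 0.17, adjusted p = 0.0302), and was called higher in Luxoid than in stage 1 NKT (0.86 ± 0.16, adjusted p = 0.0342). Of 6 myeloid or dendritic markers 2 reached the minimum intensity. Of 5 B cell markers 4 had a probe set with 1 symbol and 3 reached the minimum, with Ms4a1 at 14 to 17. Of these, Cd79b had 161, 211 and 138 in Luxoid and 206 and 143 in stage 1 NKT arrays, against 66 and 43 in CD4SP arrays (stage 1 NKT minus CD4SP 1.69 ± 0.28, adjusted p = 0.00548), and Cd79a was lower than in CD4SP in stage 1 NKT (-0.82 ± 0.22, adjusted p = 0.0408), while Pax5 was not called. Of 5 NK cell markers 4 had such a probe set. They summed to 1213 to 1585 in Luxoid and 1007 to 1204 in stage 1 NKT arrays, against 196 to 197 in CD4SP arrays, where Nkg7 gave 84 and 97. Of 4 gamma delta T cell markers 2 had such a probe set, and markers without one were not measured. Only Sox13 reached the minimum, with 110.5, 65 and 115 in Luxoid, 199 and 348 in stage 1 NKT and 49 and 42 in CD4SP arrays. It was called higher in stage 1 NKT than in CD4SP (2.55 ± 0.33, adjusted p = 0.00158), and Luxoid minus stage 1 NKT was -1.49 ± 0.30 (adjusted p = 0.0578). Of 8 genes of handling stress 4 reached it, and the list summed to 9455 to 9982 in Luxoid, 8019 to 8459 in stage 1 NKT and 9014 to 9963 in CD4SP arrays. Egr1 was lower in stage 1 NKT than in CD4SP (-0.53 ± 0.15, adjusted p = 0.0471) and had 2707, 2559 and 2329 in Luxoid arrays, against 1716 and 1868 in stage 1 NKT arrays. Jun varied within groups, with 63, 561 and 479 in Luxoid and 111 and 735 in stage 1 NKT arrays, against 59 and 88 in CD4SP arrays. The part of such cells, or of handling, in the members' differences was not tested. In bulk RNA, fewer cells of a type and less RNA per cell cannot be told apart. The Y-linked gene Kdm5d had 8.28, 1745 and 758 in Luxoid, 6.49 and 1120 in stage 1 NKT and 11.7 and 2331 in CD4SP arrays, so that the pools of each group differed in the sex of the mice.

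Most of the ribosome biogenesis genes had their highest mean in stage 1 NKT cells. The group mean was highest in stage 1 NKT for 34 of 40 members, in Luxoid for 5 and in CD4SP for 1, where the same shares over all genes tested were 25.8% for Luxoid, 37.8% for stage 1 NKT and 36.4% for CD4SP. In 22 members the order was stage 1 NKT, then Luxoid, then CD4SP, an order found in 26.6% of genes tested. In 12 others it was stage 1 NKT, then CD4SP, then Luxoid, as in 11.2% of genes tested. Counted by single arrays, the brightest of the 7 was among the 2 stage 1 NKT arrays for 29 members, the 3 Luxoid arrays for 11 and the 2 CD4SP arrays for 0. This was not counted over all genes tested. The median deviation of the members from their own mean over the 7 arrays was 0.0041, -0.08 and -0.04 in Luxoid, 0.26 and 0.20 in stage 1 NKT, and -0.14 and -0.17 in CD4SP on the log2 scale. The median range of the members within a group was 0.34 over the 3 Luxoid arrays on the log2 scale. It was 0.13 over the 2 stage 1 NKT arrays and 0.13 over the 2 CD4SP arrays. The Luxoid range was larger in size than the members' median difference in Luxoid minus stage 1 NKT, -0.28. A range of single arrays is not a like measure to a difference of means, and 3 arrays tend to span more than 2. The members' median standard error in that comparison was 0.16. Wide ranges were found in Luxoid for Rrp9, a protein of the U3 snoRNP, at 0.96, and for Polr1b, a subunit of RNA polymerase I, at 0.78 in stage 1 NKT.

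**Figure D1:**
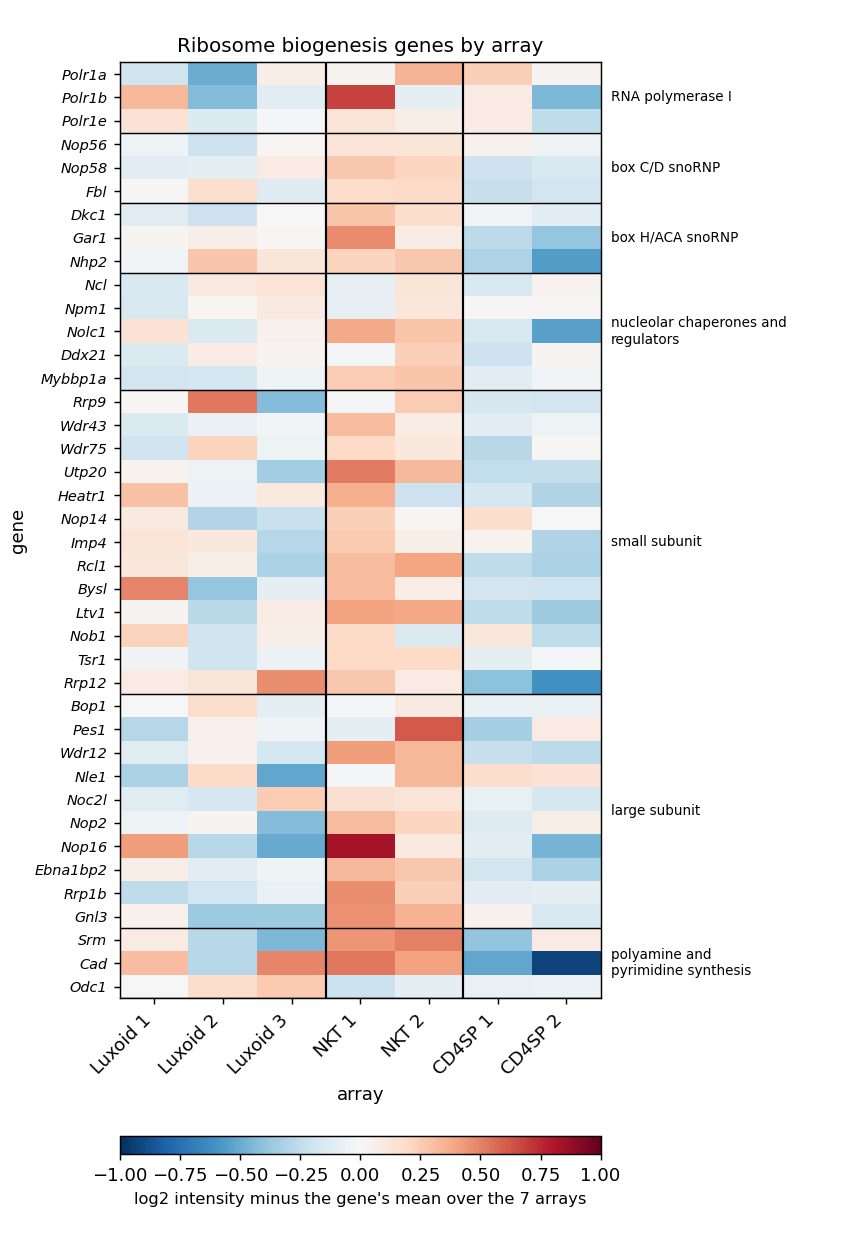
Log2 intensity of each of the 40 members (rows, grouped by role) in each of the 7 arrays (columns), minus the gene's mean over the 7 arrays, on a colour scale of -1 to 1. The 2 stage 1 NKT columns are above the gene's mean for 32 and 36 of 40 members, and both CD4SP columns are below it for 30. Of all 10874 genes tested, 6426 and 6192 are above it in the stage 1 NKT arrays, and 5820 and 5938 are below it in the CD4SP arrays.

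Promoters are shown for Cad, Nop16 and Ltv1, which had the largest differences in stage 1 NKT minus CD4SP among members with a promoter window, and for Gnl3, which had the largest in Luxoid minus stage 1 NKT. Myc with its partner Max binds the E-box CACGTG, which was looked for in each window. The part of Myc in the members' differences was not tested. RefSeq windows (GRCm38.p6) of 250 bases before to 50 after the gene start were given for 35 members, 39 windows in all, and for 5 members (Bop1, Fbl, Npm1, Rrp12 and Srm) none was given. The windows of Cad at chr5:31054530-31054829 (plus strand), Nop16 at chr13:54590025-54590324 (minus strand), Ltv1 at chr10:13193088-13193387 (minus strand) and Gnl3 at chr14:31019082-31019381 (minus strand) read as follows, 5′ to 3′ along the gene, with CACGTG in capitals.
Cad: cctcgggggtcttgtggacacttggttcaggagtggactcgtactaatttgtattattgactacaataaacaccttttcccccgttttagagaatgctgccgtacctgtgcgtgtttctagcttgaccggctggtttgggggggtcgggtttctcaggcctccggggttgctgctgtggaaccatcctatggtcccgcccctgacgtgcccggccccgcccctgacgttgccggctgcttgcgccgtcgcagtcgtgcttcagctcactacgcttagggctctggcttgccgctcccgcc
Nop16: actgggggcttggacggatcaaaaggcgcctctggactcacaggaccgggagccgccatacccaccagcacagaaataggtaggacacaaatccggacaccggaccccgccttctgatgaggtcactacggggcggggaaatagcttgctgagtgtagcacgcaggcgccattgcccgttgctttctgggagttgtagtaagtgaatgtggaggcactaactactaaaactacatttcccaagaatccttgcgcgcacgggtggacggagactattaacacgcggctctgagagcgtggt
Ltv1: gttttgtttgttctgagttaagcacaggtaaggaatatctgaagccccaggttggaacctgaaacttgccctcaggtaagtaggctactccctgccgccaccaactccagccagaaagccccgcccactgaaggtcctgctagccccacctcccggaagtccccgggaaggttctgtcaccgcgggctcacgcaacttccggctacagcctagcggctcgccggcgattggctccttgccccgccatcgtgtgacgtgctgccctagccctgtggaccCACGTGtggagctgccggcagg
Gnl3: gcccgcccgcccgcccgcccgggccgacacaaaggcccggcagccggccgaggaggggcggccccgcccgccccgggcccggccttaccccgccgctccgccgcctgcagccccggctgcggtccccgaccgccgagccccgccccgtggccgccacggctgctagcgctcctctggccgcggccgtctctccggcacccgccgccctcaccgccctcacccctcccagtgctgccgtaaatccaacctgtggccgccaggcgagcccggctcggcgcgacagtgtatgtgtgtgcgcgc

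The E-box starts 29 bases into the Ltv1 transcript, and the letters CACGTG do not occur in the windows of Cad, Nop16 and Gnl3. In all it was found in 9 of 39 member windows (23.1%), against 1127 of the 11271 windows of tested genes and 7.15% of all 32851 windows. Besides Ltv1 it was held by 8 members, whose sites are shown, chosen after they were found, as 26 bases that end 4 bases after the motif. They lie at chr1:34439692-34439717 (Imp4, plus), chr6:125131807-125131832 (Nop2, plus), chr10:88826768-88826793 (Utp20, minus), chr11:3963961-3963986 (Pes1, plus), chr11:72441351-72441376 (Mybbp1a, plus), chr11:74898088-74898113 (Tsr1, plus), chr11:82908363-82908388 (Nle1, minus) and chr17:71616216-71616241 (Wdr43, plus).
Imp4: caggacggtcttagacCACGTGacat
Nop2: gggcgtgtccctggatCACGTGtgtt
Utp20: ccagcggcactaactaCACGTGagga
Pes1: agggccctaggcagggCACGTGcggg
Mybbp1a: gactgtcttctgagccCACGTGtttg
Tsr1: gagttcacttggtgcaCACGTGgact
Nle1: cgcctcggttctcctcCACGTGggga
Wdr43: cctgcgcccgggcgaaCACGTGgctg

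The E-boxes of the members lie mostly downstream of the gene start. The motif starts after the gene start in 7 of the 9 member windows (77.8%), 3 bases into the transcript in Pes1 and 41 bases in Mybbp1a at the extremes. Imp4 and Nop2 carry it before the start, at -121 and -60. Among windows of tested genes with the motif, 173 of 1127 (15.4%) had it after the start, a description to which no test was applied. Other motifs, searched on both strands with overlaps kept, were CACGCG in 28.2% of member windows and 16.8% of windows of tested genes, the ETS core CCGGAAG in 28.2% and 18.3%, and the NRF1 core GCGCATGC in 2.56% and 5.27%. A match is only a run of letters, and no match says only that these letters are not in this window.

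Stage 1 NKT cells were first compared with CD4SP thymocytes, which asks how the NKT lineage differs from conventional T cells of the thymus. Of 40 members 10 were higher in stage 1 NKT and 0 were lower, where over all genes tested 10.8% were called higher and 4.08% lower. The 10 were Cad, Ltv1, Rrp12, Nolc1, Nhp2, Utp20, Rcl1, Wdr12, Gar1 and Ebna1bp2, with differences from 0.55 to 1.19 on the log2 scale. The difference was above 0 for 38 of 40 members, with a median of 0.33 against 0.06 over all genes tested, 56.2% of which lay above 0. Stage 1 NKT arrays lay above both CD4SP arrays without overlap for 28 members and below them for 1, Odc1, and these shares were 36.6% and 23.6% over all genes tested. Each group had 2 arrays, and the calls rested on all of them: without stage 1 NKT array 1 or without CD4SP array 2, 0 members were called, without stage 1 NKT array 2 only Gar1 was, and without CD4SP array 1 only Cad and Nolc1 were. Leaving out any of these arrays kept the difference of each of the 10 genes above 0. A count of 10 also fell to 5 where the values were quantile normalized once more and to 4 where every probe set was tested, and was 11 with the Y-linked signal as a covariate.

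**Figure D2:**
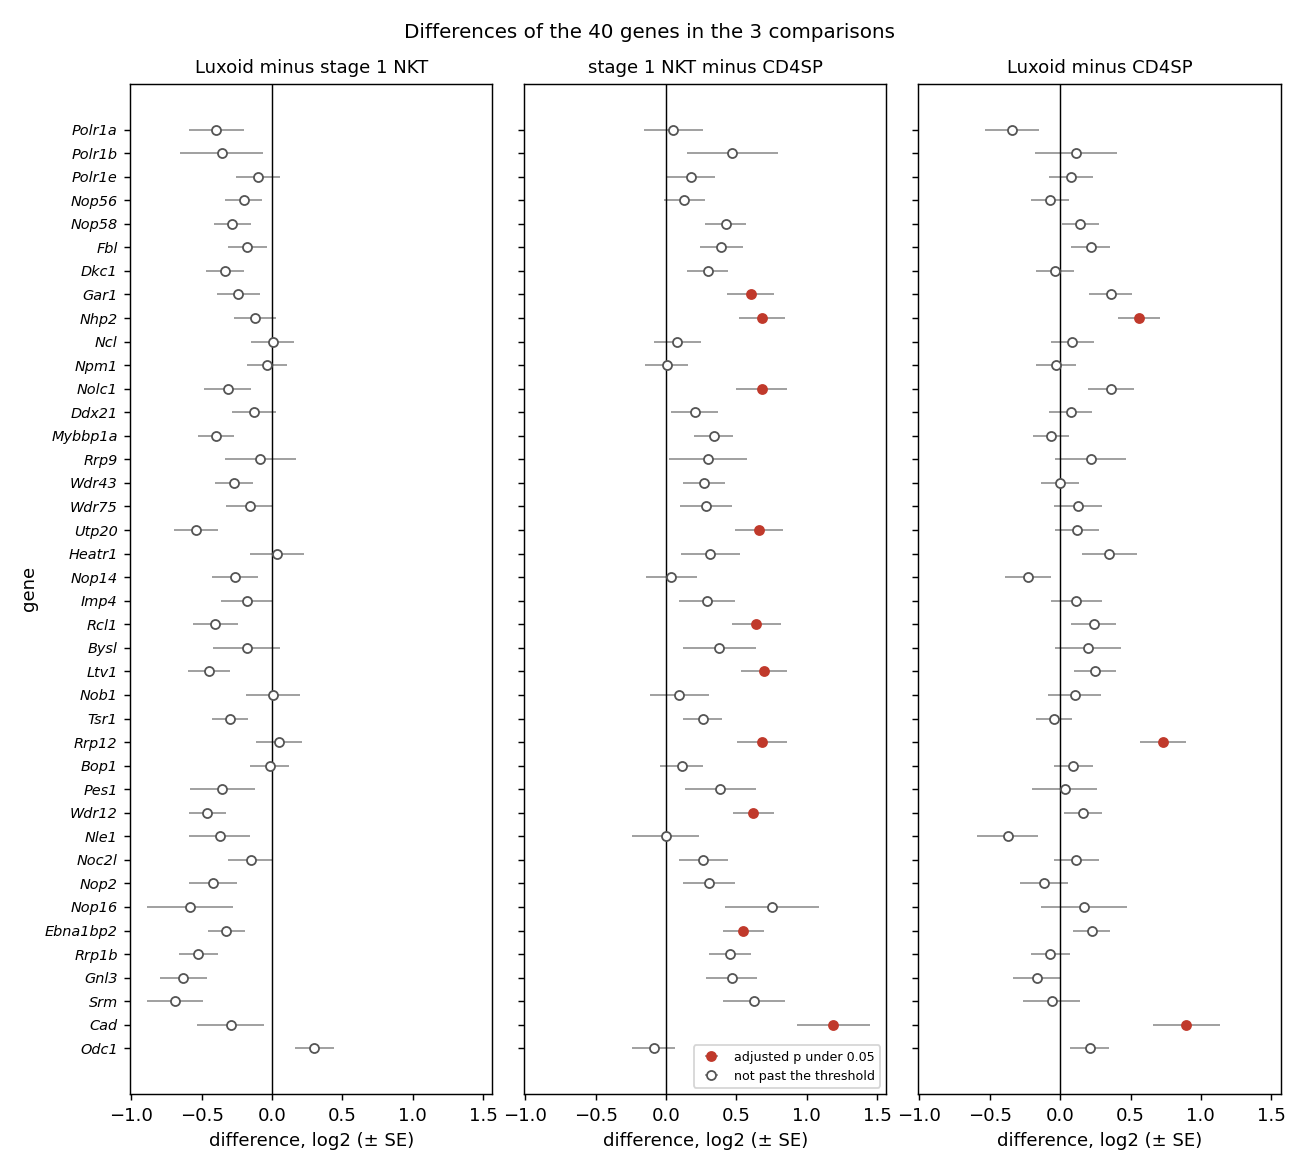
Difference in mean log2 intensity of each member with its standard error, in Luxoid minus stage 1 NKT, stage 1 NKT minus CD4SP and Luxoid minus CD4SP; filled red points are genes with an adjusted p under 0.05. The middle comparison has 10 filled points, all above 0, the last has 3, and the first has 0 with 35 of 40 points below 0.

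Cad, whose protein carries out the first steps of pyrimidine synthesis, differed by more than any other member. Its intensity was 505 and 462 in stage 1 NKT arrays, against 244 and 184 in CD4SP arrays, and the groups were far apart. Cad was 2.28-fold higher in stage 1 NKT (1.19 ± 0.26 on the log2 scale, adjusted p = 0.0178), and its other probe sets differed by 0.87 and 0.77 in the same direction. Srm, spermidine synthase, had 531 and 556 in stage 1 NKT and 298 and 415 in CD4SP arrays. The groups did not overlap, but the difference of 0.63 ± 0.22 did not pass the test (adjusted p = 0.0970). Odc1, ornithine decarboxylase, the rate-limiting enzyme of polyamine synthesis, had 3851 and 4213 in stage 1 NKT and 4255 and 4307 in CD4SP arrays, a difference of -0.09 ± 0.15 (adjusted p = 0.740). Of 13 further genes of polyamine and pyrimidine metabolism 10 were tested, with a median difference of 0.30 and 1 call, Ctps, which makes CTP from UTP: 791 and 901 in stage 1 NKT against 566 and 554 in CD4SP arrays (0.59 ± 0.14, adjusted p = 0.0260).

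The subunits of RNA polymerase I gave no call. Polr1a, the largest, had 819 and 1019 in stage 1 NKT and 946 and 821 in CD4SP arrays, which overlapped, with a difference of 0.05 ± 0.21 (adjusted p = 0.895). Polr1b had 256 and 149 in stage 1 NKT and 169 and 117 in CD4SP arrays, and the spread within each group was wide. Polr1e had 486 and 463 in stage 1 NKT and 470.0 and 373 in CD4SP arrays.

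Proteins of the box H/ACA snoRNPs, which convert uridine to pseudouridine in ribosomal RNA, differed more. Nhp2, which binds the guide RNA in this complex, had 2433 and 2501 in stage 1 NKT arrays, against 1678 and 1414 in CD4SP arrays. Gar1, another core protein, had 4052 and 3088 in stage 1 NKT arrays, against 2438 and 2234 in CD4SP arrays. Neither gene overlapped between the groups, and both were higher in stage 1 NKT, Nhp2 by 0.68 ± 0.16 (1.60-fold, adjusted p = 0.0266) and Gar1 by 0.60 ± 0.17 (1.52-fold, adjusted p = 0.0453). Dkc1, the pseudouridine synthase itself, had 1864 and 1735 in stage 1 NKT and 1504 and 1424 in CD4SP arrays and did not pass (0.30 ± 0.15, adjusted p = 0.218).

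Core proteins of the box C/D snoRNPs, which add methyl groups to ribose, gave 3 of 3 differences above 0, against 56.2% of all genes tested, and 0 calls. Nop58 had 2435 and 2336 in stage 1 NKT and 1747 and 1811 in CD4SP arrays (0.42 ± 0.14, adjusted p = 0.0889), and the methyltransferase Fbl had 3031 and 3055 in stage 1 NKT and 2281 and 2357 in CD4SP arrays (0.39 ± 0.15, adjusted p = 0.125). For both the arrays of the 2 groups were apart by more than the replicates of either. Nop56 had 3908 and 3884 in stage 1 NKT and 3676 and 3453 in CD4SP arrays (0.13 ± 0.15, adjusted p = 0.604).

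Among 5 nucleolar chaperones and regulators 1 was called, where 10.8% of all genes tested were called higher. Nolc1, a chaperone that escorts snoRNPs to the nucleolus, had 1588 and 1480.2 in stage 1 NKT arrays, against 1093 and 838 in CD4SP arrays. It was 1.60-fold higher in stage 1 NKT (0.68 ± 0.18, adjusted p = 0.0372), without overlap of the groups. The genes of 2 abundant nucleolar proteins had differences near 0: Ncl (nucleolin) had 7209 and 8293 in stage 1 NKT and 6868 and 7814 in CD4SP arrays (0.08 ± 0.17, adjusted p = 0.793), and Npm1 (nucleophosmin) had 8599 and 9859 in stage 1 NKT and 9184 and 9184 in CD4SP arrays (0.0036 ± 0.15, adjusted p = 0.989). Mybbp1a, a nucleolar protein that binds Myb, had 2563 and 2608 in stage 1 NKT and 1991 and 2101 in CD4SP arrays, apart but not past the test (0.34 ± 0.14, adjusted p = 0.150). The helicase Ddx21 had 3273 and 3914 in stage 1 NKT and 2862 and 3380 in CD4SP arrays, which overlapped.

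The small subunit factors held 4 of the 10 calls among 13 members, with all 13 differences above 0 and a median of 0.30. Among all genes tested 10.8% were called higher and 56.2% lay above 0. Ltv1, an assembly factor of the small subunit, had 747 and 738 in stage 1 NKT arrays, against 474 and 442 in CD4SP arrays. Rrp12, which in yeast acts in export of the subunits, had 308 and 271 in stage 1 NKT arrays, against 193 and 168 in CD4SP arrays. Utp20, a component of the processome that assembles on the nascent precursor, had 691 and 603 in stage 1 NKT arrays, against 408 and 409 in CD4SP arrays. In each of these genes the dimmer stage 1 NKT array was brighter than the brighter CD4SP array by more than the difference between replicates. Rcl1, required in yeast for cuts that free the small subunit RNA, had 439 and 463 in stage 1 NKT arrays, against 295 and 283 in CD4SP arrays. These 4 genes were 1.62-fold (Ltv1, 0.70 ± 0.16, adjusted p = 0.0229), 1.61-fold (Rrp12, 0.68 ± 0.18, adjusted p = 0.0367), 1.58-fold (Utp20, 0.66 ± 0.17, adjusted p = 0.0349) and 1.56-fold (Rcl1, 0.64 ± 0.18, adjusted p = 0.0437) higher in stage 1 NKT.

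The large subunit factors held 2 calls among 10 members, where 10.8% of all genes tested were called higher, with a median difference of 0.42. Wdr12, which forms a complex with Pes1 and Bop1, had 1031 and 968 in stage 1 NKT arrays, against 658 and 642 in CD4SP arrays, and was 1.54-fold higher in stage 1 NKT (0.62 ± 0.15, adjusted p = 0.0240). Its partners were apart less clearly: Pes1 had 646 and 1049 in stage 1 NKT and 546 and 728 in CD4SP arrays, which overlapped, and Bop1 had 531 and 573 in stage 1 NKT and 512 and 510.3 in CD4SP arrays. Ebna1bp2, a large subunit assembly factor, had 2320.3 and 2242 in stage 1 NKT arrays, against 1633 and 1489 in CD4SP arrays, and was 1.46-fold higher in stage 1 NKT (0.55 ± 0.14, adjusted p = 0.0367). Nop16 had the largest difference of this class, 0.75 ± 0.33, but replicates far apart, 433 and 259.8 in stage 1 NKT and 225 and 176 in CD4SP arrays (adjusted p = 0.176). Gnl3, the GTPase nucleostemin, had 1009.7 and 934 in stage 1 NKT and 755 and 656 in CD4SP arrays, without overlap and without a call (0.47 ± 0.18, adjusted p = 0.133). Other probe sets gave other values: the second of Wdr12 that reached the minimum intensity differed by -0.35, and the further ones of Nolc1 by 0.39 and -0.18. The second of Nop16 differed by -0.15. The mean over all probe sets, which takes in those at background, gave 0.08 for Wdr12 (adjusted p = 0.759), 0.29 for Nolc1 (adjusted p = 0.319) and 0.09 for Ebna1bp2 (adjusted p = 0.703), whose 2 other probe sets lay under the minimum.

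**Figure D3:**
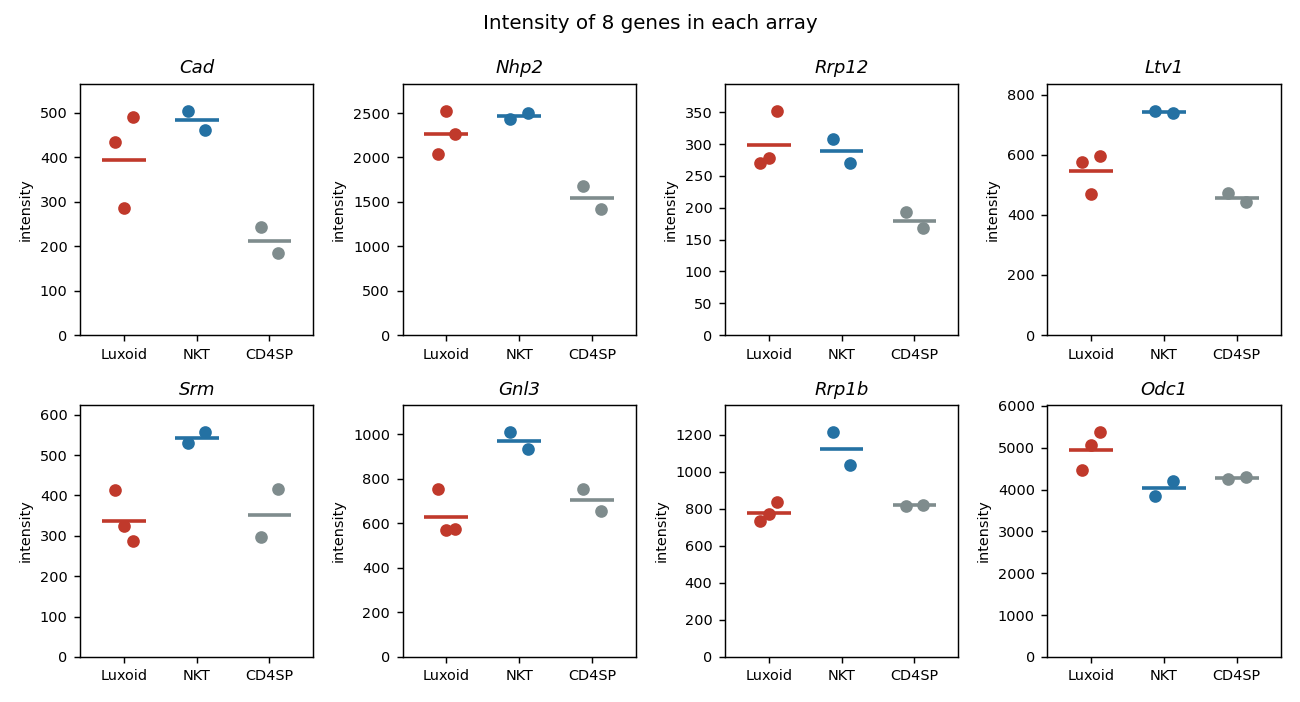
Intensity per array of 8 members (points) in Luxoid, stage 1 NKT and CD4SP, with bars at the geometric mean of the group. Cad, Nhp2, Rrp12 and Ltv1 are higher in stage 1 NKT than in CD4SP arrays with no overlap, while Srm, Gnl3 and Rrp1b have their 3 Luxoid arrays below both stage 1 NKT arrays and Odc1 has them above.

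Luxoid cells were then compared with stage 1 NKT cells, which asks what differs without PLZF. By limma 0 of 40 members passed the adjusted threshold, where 0.901% of all genes tested were called higher and 0.653% lower. At an unadjusted p under 0.05 there were 12 members (30.0%), all with lower values in Luxoid, and the share of genes tested lower at this p was 7.12%. The difference was below 0 for 35 of 40 members, against 56% of all genes tested, and the median was -0.28 against -0.03. All 3 Luxoid arrays lay below both stage 1 NKT arrays for 18 members and above them for 1, Odc1, and the shares over all genes tested were 16.6% and 10.1%. No member was called under any alternative setting or without any array, while 33 to 37 of the 40 differences (32 of 37 with the stricter intensity minimum) were below 0. The 5 members with a difference above 0 were Odc1, Rrp12, Heatr1, Nob1 and Ncl.

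Srm had 414, 324 and 287 in Luxoid arrays, against 531 and 556 in stage 1 NKT arrays, the largest difference among the members (-0.69 ± 0.20, adjusted p = 0.193). The brightest Luxoid array was below the dimmer stage 1 NKT array. Gnl3 had 756, 571 and 573 in Luxoid arrays, against 1009.7 and 934 in stage 1 NKT arrays (-0.63 ± 0.17, adjusted p = 0.145). Rrp1b, a nucleolar protein of the large subunit pathway, had 735, 769.5 and 838 in Luxoid arrays, against 1213 and 1036 in stage 1 NKT arrays (-0.52 ± 0.14, adjusted p = 0.143). In neither gene did the groups overlap, and both also had Luxoid means slightly under those of CD4SP (Gnl3 -0.16 ± 0.17, Rrp1b -0.07 ± 0.14), differences within their standard errors.

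All 10 large subunit members had a difference below 0, against 56% of all genes tested, with a median of -0.40. Wdr12 had 709.6, 794 and 681 in Luxoid arrays, against 1031 and 968 in stage 1 NKT arrays (-0.46 ± 0.13, adjusted p = 0.192), while its second probe set differed by 0.11. Nop2, which methylates ribosomal RNA, had 397, 418 and 303 in Luxoid arrays, against 513 and 477 in stage 1 NKT arrays (-0.42 ± 0.17, adjusted p = 0.392). The arrays of these genes did not overlap between the groups, nor did those of Ebna1bp2, with 1949, 1722 and 1802 in Luxoid and 2320.3 and 2242 in stage 1 NKT arrays (-0.32 ± 0.13, adjusted p = 0.393). Nop16 had 325, 201 and 171 in Luxoid arrays, against 433 and 259.8 in stage 1 NKT arrays, a larger difference with overlap (-0.58 ± 0.30, adjusted p = 0.525). Its second probe set differed by -0.12.

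Small subunit factors had a median of -0.18 and 10 of 13 differences below 0, against 56% of all genes tested. Utp20 had 495, 466 and 379.9 in Luxoid arrays, against 691 and 603 in stage 1 NKT arrays (-0.54 ± 0.16, adjusted p = 0.192). Ltv1 had 576, 469.7 and 596 in Luxoid arrays, against 747 and 738 in stage 1 NKT arrays (-0.45 ± 0.15, adjusted p = 0.273). Rcl1 had 381, 368 and 283 in Luxoid arrays, against 439 and 463 in stage 1 NKT arrays (-0.40 ± 0.16, adjusted p = 0.385). These 3 genes were without overlap between the groups, as was Tsr1, a late factor of the small subunit, at 1903, 1704 and 1876 in Luxoid and 2248 and 2248 in stage 1 NKT arrays (-0.30 ± 0.13, adjusted p = 0.420). The 3 differences above 0 were those of Rrp12, Heatr1 and Nob1, and Rrp12 had 271, 278 and 353 in Luxoid arrays, against 308 and 271 in stage 1 NKT arrays, a difference of 0.05 ± 0.16 (adjusted p = 0.954).

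The medians were -0.36 for the RNA polymerase I subunits, -0.24 for the box H/ACA and -0.20 for the box C/D proteins. Polr1a had 699, 569 and 842 in Luxoid arrays, against 819 and 1019 in stage 1 NKT arrays, with overlap (-0.40 ± 0.19, adjusted p = 0.493). Its other probe sets that reached the minimum intensity differed by 0.0087 and -0.15. Dkc1 had 1425, 1329.7 and 1530.0 in Luxoid arrays, against 1864 and 1735 in stage 1 NKT arrays (-0.33 ± 0.13, adjusted p = 0.379). Nop58 had 1862, 1895 and 2140.3 in Luxoid arrays, against 2435 and 2336 in stage 1 NKT arrays (-0.28 ± 0.13, adjusted p = 0.467). The groups of Dkc1 and Nop58 did not overlap, nor did those of Nop56 (-0.20 ± 0.13), Fbl (-0.18 ± 0.14) and Gar1 (-0.24 ± 0.15), while Nhp2 overlapped (-0.12 ± 0.15). Mybbp1a had 1892, 1905 and 2083 in Luxoid arrays, against 2563 and 2608 in stage 1 NKT arrays, a gap wider than the range of either group (-0.40 ± 0.13, adjusted p = 0.250). Nolc1 had 1351, 1101 and 1255 in Luxoid arrays, against 1588 and 1480.2 in stage 1 NKT arrays (-0.32 ± 0.16, adjusted p = 0.523).

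Odc1 ran the other way from its pathway partner Srm. It had 4477, 5062 and 5367 in Luxoid arrays, against 3851 and 4213 in stage 1 NKT arrays, with no overlap (0.30 ± 0.14, adjusted p = 0.461). Cad had 434, 287 and 491 in Luxoid arrays, against 505 and 462 in stage 1 NKT arrays, and the second Luxoid array was far below the others (-0.29 ± 0.24, adjusted p = 0.728). Its other probe sets differed by -0.20 and 0.39. Of the 10 further polyamine and pyrimidine genes tested 0 were called by limma, with differences from -0.24 to 0.54.

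**Figure D4:**
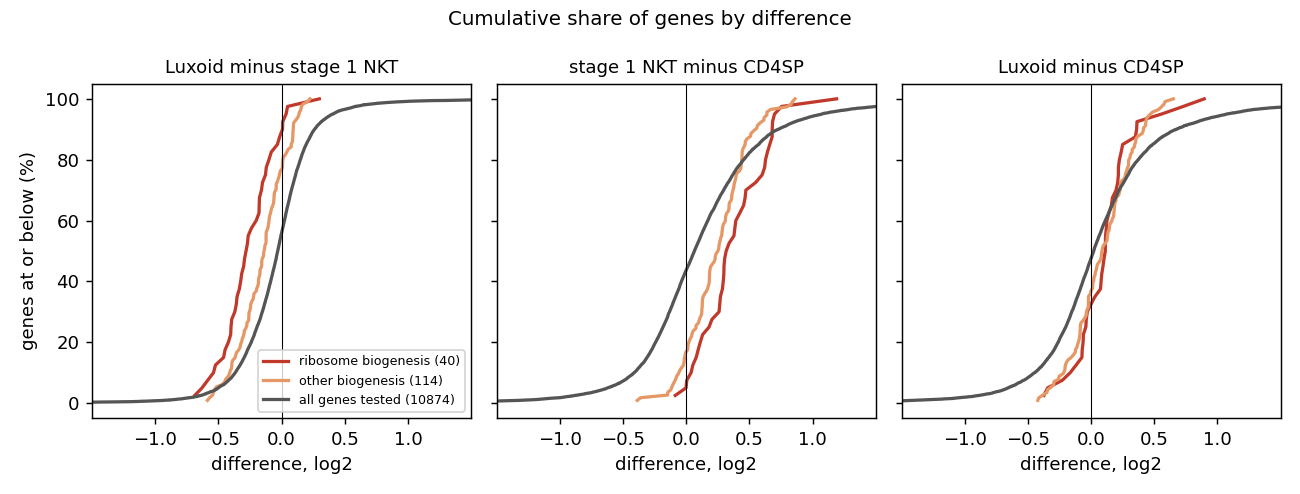
Cumulative share of genes (percent) by difference in log2 intensity from -1.5 to 1.5, for the 40 members, 114 other ribosome biogenesis genes and all 10874 genes tested, in each comparison. The curve of the members lies left of all genes in Luxoid minus stage 1 NKT (medians -0.28 and -0.03) and right of it in stage 1 NKT minus CD4SP (0.33 and 0.06), and lies closer in Luxoid minus CD4SP (0.11 and 0.02).

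Luxoid cells were last compared with CD4SP thymocytes. The 3 comparisons share arrays, so that their values are set side by side and are not independent. Cad, Nhp2 and Rrp12 were higher in Luxoid and 0 members were lower, 3 calls where 11.3% of all genes tested were called higher and 5.51% lower. The members' median difference was 0.11, against 0.02 over all genes tested, with 27 of 40 above 0 where 52.4% of all genes tested were. All 3 Luxoid arrays lay above both CD4SP arrays for 11 members and below them for 0, and the shares over all genes tested were 25.4% and 20.6%.

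Rrp12 had 271, 278 and 353 in Luxoid arrays, against 193 and 168 in CD4SP arrays, and was 1.66-fold higher (0.73 ± 0.16, adjusted p = 0.0178). Cad had 434, 287 and 491 in Luxoid arrays, against 244 and 184 in CD4SP arrays, and was 1.86-fold higher (0.90 ± 0.24, adjusted p = 0.0342). Nhp2 had 2040.4, 2527 and 2262 in Luxoid arrays, against 1678 and 1414 in CD4SP arrays, and was 1.47-fold higher (0.56 ± 0.15, adjusted p = 0.0367). The lowest Luxoid array was above the highest CD4SP array in each. Without either CD4SP array 0 of the 3 were called, without Luxoid array 3 or either stage 1 NKT array 1 was, and without Luxoid array 1 or 2 there were 2. Further from the threshold, Nolc1 (0.36 ± 0.16, adjusted p = 0.179), Gar1 (0.36 ± 0.15, adjusted p = 0.154) and Heatr1, a processome component with 613, 479.9 and 534 in Luxoid and 442 and 405 in CD4SP arrays (0.35 ± 0.19, adjusted p = 0.270), also had groups that did not overlap. For Nolc1 the sign rested on the probe set: its dimmest was at -0.66, and the mean over its probe sets at -0.068. The lowest differences were those of Nle1, a large subunit factor, with 158, 224 and 137 in Luxoid and 222 and 216 in CD4SP arrays (-0.37 ± 0.22, adjusted p = 0.295), and of Polr1a (-0.34 ± 0.19, adjusted p = 0.280). Other probe sets of Polr1a that reached the minimum intensity differed by 0.11 and -0.28.

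The 7 genes called higher in stage 1 NKT and not in Luxoid, both against CD4SP, are not thereby shown to differ between the NKT groups. The test of that difference is the comparison of Luxoid with stage 1 NKT, in which none of the 7 passed. All 7 (Utp20, Wdr12, Ltv1, Rcl1, Ebna1bp2, Nolc1 and Gar1) had the order stage 1 NKT, then Luxoid, then CD4SP, found in 26.6% of genes tested. The way the 7 were picked favours this order.

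A wider list of 119 other genes of ribosome biogenesis was read beside the members, of which 114 were tested. In stage 1 NKT minus CD4SP 3 were called, all higher, with 95 of 114 differences above 0, against 56.2% of all genes tested, and a median of 0.25. Naf1, an assembly factor of the H/ACA snoRNPs, had 259 and 241 in stage 1 NKT arrays, against 145 and 134 in CD4SP arrays (0.84 ± 0.16, adjusted p = 0.0108). Rrp15, a factor of the large subunit, had 1042 and 885 in stage 1 NKT arrays, against 527 and 553 in CD4SP arrays (0.83 ± 0.15, adjusted p = 0.00845). Exosc2, a subunit of the RNA exosome, had 633 and 581 in stage 1 NKT arrays, against 435 and 360 in CD4SP arrays (0.62 ± 0.16, adjusted p = 0.0360). Their groups did not overlap. The 3 calls are a smaller share than the 10.8% of all genes tested called higher. In Luxoid minus stage 1 NKT 0 of the 114 were called by limma (12, or 10.5%, lower at an unadjusted p under 0.05), with 87 below 0 and a median of -0.14. Over all genes tested 0.653% were called lower, 7.12% were lower at this unadjusted p and 56% lay below 0. In Luxoid minus CD4SP 1 was called, where 11.3% of all genes tested were called higher. It was Exosc9 of the exosome, with 1449, 1767 and 1939 in Luxoid arrays, against 1040 and 1135 in CD4SP arrays (0.65 ± 0.16, adjusted p = 0.0280).

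Myc itself was not called in any comparison, and 2 of the 10 tested genes of its network were called, both lower than in CD4SP. Among all genes tested 4.08% were called lower in stage 1 NKT and 5.51% in Luxoid, each against CD4SP. Myc had 1540, 1881 and 1262 in Luxoid, 1801 and 1935 in stage 1 NKT and 2160 and 1849 in CD4SP arrays, with differences of -0.28 ± 0.18 (Luxoid minus stage 1 NKT, adjusted p = 0.644), -0.10 ± 0.20 (stage 1 NKT minus CD4SP, adjusted p = 0.784) and -0.38 ± 0.18 (Luxoid minus CD4SP, adjusted p = 0.219). Mxd1, which competes with Myc for Max and represses, had 558, 490 and 546 in Luxoid, 340 and 334 in stage 1 NKT and 1140 and 780 in CD4SP arrays. It fell by 1.48 in stage 1 NKT (± 0.19, adjusted p = 0.00168) and by 0.83 in Luxoid (± 0.18, adjusted p = 0.0141), both against CD4SP. Mxd4, of the same family, had 2625, 2731 and 2309 in Luxoid, 2333 and 1924 in stage 1 NKT and 4425 and 4404 in CD4SP arrays, and was also lower than in CD4SP in stage 1 NKT (-1.06 ± 0.16, adjusted p = 0.00357) and in Luxoid (-0.79 ± 0.15, adjusted p = 0.00743). Neither gene overlapped between the NKT groups and CD4SP, and in Luxoid minus stage 1 NKT the adjusted p was 0.156 for Mxd1 and 0.560 for Mxd4.

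Genes of S phase and mitosis were called often in the comparisons with CD4SP. Of 17 tested, 13 were higher in stage 1 NKT and 15 in Luxoid, each against CD4SP, with medians of 0.86 and 0.90. Among all genes tested 10.8% and 11.3% were called higher in these comparisons, with medians of 0.06 and 0.02. In Luxoid minus stage 1 NKT 0 of the 17 were called, where 0.901% of all genes tested were called higher and 0.653% lower. The median there was 0.09, against -0.03 over all genes tested. Cdk1, the kinase that drives mitosis, had 1036, 528 and 803 in Luxoid, 934 and 640 in stage 1 NKT and 279 and 193 in CD4SP arrays. Both NKT groups were thus well above CD4SP in dividing-cell transcripts, and the list summed to 38497 to 45464 in Luxoid, 40145 to 41439 in stage 1 NKT and 25154 to 27042 in CD4SP arrays. By the medians per array, Luxoid arrays lay between stage 1 NKT and CD4SP for the members. For the dividing-cell genes the median deviation was 0.29, 0.11 and 0.38 in Luxoid arrays and 0.19 in both stage 1 NKT arrays. The part of cell division in the members' differences was not tested.

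**Figure D5:**
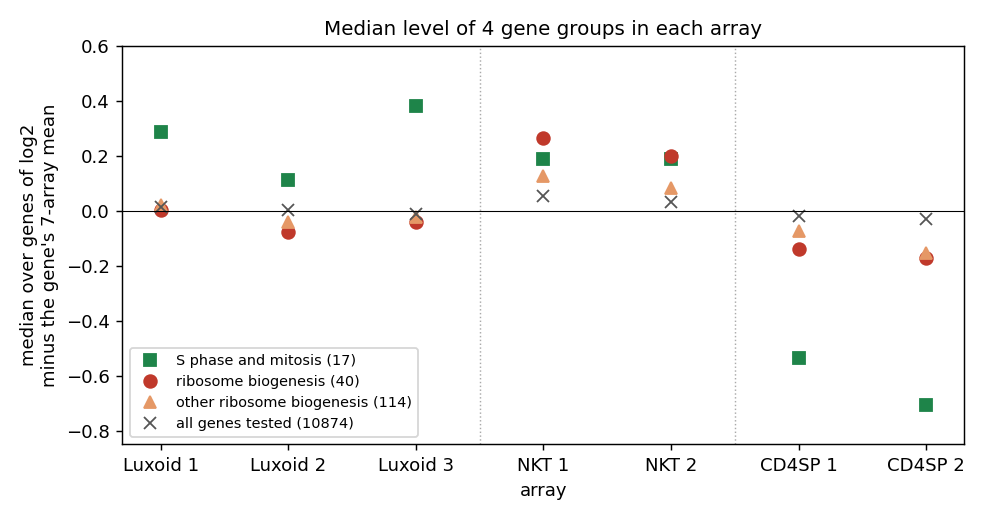
Median deviation of log2 intensity from the gene's mean over the 7 arrays, per array, for the 40 members and 3 other groups of genes. For the members the stage 1 NKT arrays stand at 0.26 and 0.20 above Luxoid (-0.08 to 0.0041) and CD4SP (-0.17 and -0.14), while for S phase and mitosis genes Luxoid (0.11 to 0.38) and stage 1 NKT (0.19 in both) stand above CD4SP (-0.71 and -0.54).

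The 40 members had 81 probe sets with 1 symbol, and 34 further probe sets of 23 members reached the minimum intensity. Their difference had the sign of the brightest probe set in 25 of 34 cases for Luxoid minus stage 1 NKT, in 28 for stage 1 NKT minus CD4SP and in 20 for Luxoid minus CD4SP.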

How the data were processed

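The deposited table holds intensities of 45037 probe sets, made by the authors with RMA in Affymetrix Expression Console per the submitters' processing notes; their versions are not stated there. Background correction, quantile normalization and summarising of probes are part of it, so every array has nearly the same distribution and total RNA per cell is not measured. The values are linear, although log2 had been assumed, and log2 was taken first. Per GEO's platform annotation, 34945 probe sets had 1 symbol, 932 several and 9160 none; 34741 matched GRCm38.p6 RefSeq by gene ID, which changed 0 symbols. Of each of 18193 genes the brightest probe set was kept, and the 10874 reaching 82 in 2 or more arrays were tested (limma 3.58.1, R 4.3.3; eBayes after lmFit; a mean per group over all 7 arrays, 4 residual and 4.49 prior degrees of freedom), with Benjamini-Hochberg adjustment. Few arrays limit the precision. Scripts were tested on simulated data. The members, gene lists and alternatives were chosen with earlier results of these data known, and p-values measure the spread between pooled samples. Any member could be named; of other lists, up to 4 called genes with the largest differences, Myc, Mycn, Zbtb16 and the markers. Alternatives were other intensity minimums, probe set rules, scalings, offsets, variance models, a replicate block, a Y-linked covariate and leaving out each array.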

Additional observations from a re-analysis of the deposited data

How the results depend on the processing

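Of the single-gene differences given, 275 of 276 under other settings and 159 of 161 without 1 array kept their direction and side of the threshold in Luxoid minus stage 1 NKT, 229 of 252 and 103 of 147 in stage 1 NKT minus CD4SP, and 136 of 143 and 68 of 84 in Luxoid minus CD4SP. Without 1 array, where a group of 2 leaves a lone array assumed to vary like the others, members called were 0 to 0 (Luxoid minus stage 1 NKT), 0 to 10 (stage 1 NKT minus CD4SP) and 0 to 2 (Luxoid minus CD4SP), the other biogenesis genes 0 to 0, 0 to 5 and 0 to 3, and all genes 55 to 178, 643 to 1846 and 866 to 1726, against 169, 1621 and 1831 with all arrays. Members called in stage 1 NKT minus CD4SP were 4 with all probe sets tested and 5 with a second quantile normalization, and in Luxoid minus CD4SP 1 with only the 2 groups compared. The other biogenesis genes called, 3 in stage 1 NKT minus CD4SP and 1 in Luxoid minus CD4SP, were 5 and 3 with the stricter intensity minimum, 8 and 5 with the mean of probe sets, 6 and 4 with median centring, 5 and 2 with an offset of 16, 6 and 3 with a trend in the variance, 7 and 2 with array weights and 9 and 8 with the Y-linked covariate; with only the 2 groups compared, 5 were called in stage 1 NKT minus CD4SP. Signs turned: Odc1 to 0.012 (stage 1 NKT minus CD4SP) and Nolc1 to -0.068 (Luxoid minus CD4SP) with the mean of probe sets, and without 1 array Rrp12 (-0.073 to 0.14, Luxoid minus stage 1 NKT), Ncl (-0.023 to 0.18), Npm1 (-0.095 to 0.10, both stage 1 NKT minus CD4SP) and Srm (-0.30 to 0.18, Luxoid minus CD4SP). The cause was not tested.

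With replicate number as a block, 14 members were called in stage 1 NKT minus CD4SP, the 10 and Polr1b, Gnl3, Nop16 and Nop58, 2 in Luxoid minus CD4SP, without Nhp2, and 0 in Luxoid minus stage 1 NKT, with 2616 genes and 16 other biogenesis genes in stage 1 NKT minus CD4SP and 4 other biogenesis genes in Luxoid minus CD4SP. Under the block Rrp12 was at -0.073 (Luxoid minus stage 1 NKT) and Srm at 0.056 (Luxoid minus CD4SP). Deviations of same-numbered arrays correlated at 0.334 to 0.491, but no label says that a number marks a shared batch, each comparison has only 2 such pairs, and the arrays numbered 1 were those with little Y-linked signal.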

Other observations

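Members of the list are often host genes of small nucleolar RNAs. By RefSeq positions, 8 of the 40 members (20.0%) have at least 1 snoRNA gene inside their span, against 244 of 10855 tested genes (2.25%). The hosts were Nop56 with 5, Nop58 with 4, Wdr43 and Gnl3 with 3 each, Ncl with 2, and Dkc1, Tsr1 and Odc1 with 1 each. None of the 8 was called in any of the 3 comparisons, and among them Nop56, Nop58, Wdr43, Gnl3, Dkc1 and Tsr1 had all Luxoid arrays below both stage 1 NKT arrays, whereas Odc1 had them above; over all genes tested these shares were 16.6% and 10.1%. The shares of all genes tested called higher and lower were 0.901% and 0.653% in Luxoid minus stage 1 NKT, 10.8% and 4.08% in stage 1 NKT minus CD4SP, and 11.3% and 5.51% in Luxoid minus CD4SP. The arrays measure the host transcript and not the snoRNA.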
